A study of Mus musculus with 18 samples.

Results

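The chemokine ligand genes Ccl2, Ccl5, Ccl7, Ccl20, Cx3cl1, Cxcl1, Cxcl5, Cxcl10, Cxcl12 and Cxcl16 were followed through an RNA-seq series on the mouse prostate cancer line MPC3. The 10 genes were taken by name, with earlier results of these data known. All 10 were among the 14309 genes that passed the filter on low counts, of 47643 in the count table. Control MPC3 cells (6 libraries, called plko in the sample titles) were compared with cells carrying the short hairpin shRNF185.1 (6 libraries) or shRNF185.3 (6 libraries), RNAs that lower the messenger RNA they match. What the control vector carries, the agents added to the cultures and the time of harvest are not given in the sources used here. Rnf185 encodes an E3 ubiquitin ligase anchored in the membrane of the endoplasmic reticulum, and the series asks what changes when it is lowered. The labels do not say whether the 6 libraries of a group came from separate cultures, so p-values measure the spread between these libraries, which may be technical. Each of 3 batches named in the labels holds 2 libraries of every group (replicates 1 and 2, 3 and 4, 5 and 6).

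Chemokines are small secreted proteins that bind G protein-coupled receptors and direct the migration of leukocytes and other cells. They are classed by the spacing of the first cysteines of the mature protein, and a receptor often binds several ligands of the same class. Tumor cells and the fibroblasts around them secrete chemokines, and many of these genes are induced by NF-kB or interferon signalling. Of the genes here, Cxcl1 and Cxcl5 attract neutrophils through Cxcr2, Cxcl10 attracts T cells through Cxcr3, and Cxcl12 binds Cxcr4 and the scavenging receptor Ackr3. Ccl2 and Ccl7 attract monocytes through Ccr2, Ccl5 attracts T cells and monocytes, and Ccl20 acts through Ccr6. Cx3cl1 and Cxcl16 are made as membrane-anchored proteins that proteases can shed, and bind Cx3cr1 and Cxcr6.

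The class of each gene can be read from its coding sequence, shown here because the class of a chemokine bears on which receptors it binds. The stretches are taken from GENCODE M21 transcripts, 5′ to 3′, with the codons of the class-defining cysteines in capitals.
Cxcl1: gagctgcgcTGTcagTGCctgcag
Cxcl5: gagctgcgtTGTgttTGCttaacc
Cxcl10: acggtccgcTGCaacTGCatccat
Cxcl12: agctaccgaTGCcccTGCcggttc
Cxcl16: gctggaagtTGTtctTGTgatcgt
Ccl2: ccactcaccTGCTGCtactca
Ccl7: gcatccacaTGCTGCtatgtc
Ccl5: accactcccTGCTGCtttgcc
Ccl20: aactacgacTGTTGCctctcg
Cx3cl1: atgacgaaaTGCgaaatcatgTGCgacaag
In the 5 CXC genes 1 codon separates the cysteines, in the 4 CC genes they are adjacent, and in Cx3cl1 3 codons lie between them. Cxcl1 and Cxcl5 carry the codons for glutamate, leucine and arginine (gagctgcgc and gagctgcgt) just before the first cysteine, the mark of neutrophil-attracting CXC chemokines. The other CXC genes do not.

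RefSeq promoter windows of 300 bases on GRCm38 could be matched for 5 of the 10 genes. The windows of 3 genes are shown, because Cxcl10 and Cxcl12 rose with both hairpins and Cxcl1 was called with neither. Capitals mark matches to the NF-kB consensus of 10 bases or to the interferon response pattern, which is GAAA, any 2 bases and GAAA, searched on both strands.
Cxcl10, chr5:92348840-92349139, minus strand: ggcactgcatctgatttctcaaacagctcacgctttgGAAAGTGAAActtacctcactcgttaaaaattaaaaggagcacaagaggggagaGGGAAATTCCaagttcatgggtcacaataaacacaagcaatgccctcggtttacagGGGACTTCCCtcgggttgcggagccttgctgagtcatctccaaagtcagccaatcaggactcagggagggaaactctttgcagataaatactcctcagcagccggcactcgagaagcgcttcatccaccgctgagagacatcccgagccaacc
Cxcl1, chr5:90890995-90891294, plus strand: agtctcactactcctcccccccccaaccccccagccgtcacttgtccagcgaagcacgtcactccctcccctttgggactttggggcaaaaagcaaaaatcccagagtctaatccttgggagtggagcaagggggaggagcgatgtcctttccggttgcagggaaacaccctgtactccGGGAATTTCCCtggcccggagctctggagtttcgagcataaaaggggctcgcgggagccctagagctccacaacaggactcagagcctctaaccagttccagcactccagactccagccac
Cxcl12, chr6:117168285-117168584, plus strand: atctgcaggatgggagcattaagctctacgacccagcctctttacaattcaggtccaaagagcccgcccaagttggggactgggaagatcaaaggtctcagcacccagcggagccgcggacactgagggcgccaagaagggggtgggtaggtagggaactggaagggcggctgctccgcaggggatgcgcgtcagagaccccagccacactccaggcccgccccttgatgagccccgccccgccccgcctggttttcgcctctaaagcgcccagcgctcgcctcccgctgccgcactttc
Cxcl10 has 2 NF-kB matches, starting 159 and 103 bases before the start site, and 1 match to the interferon response pattern 213 bases before it. In Cxcl1, 2 NF-kB matches on opposite strands overlap in the 11 bases in capitals. The Cxcl12 window holds neither pattern. Of 32851 promoter windows of the same length, 4.51% held the NF-kB consensus and 3.44% held the interferon response pattern. The Ccl20 window held 1 NF-kB match, and that of Cx3cl1 none. A match is a description of the letters and not a site in use.

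Total counts per library ranged from 22027395 to 43379662. Levels are the deposited values in CPM (counts scaled by the size of the library), given as mean ± SD over the 6 libraries of a group or as the lowest, median and highest library. Rnf185 was at 33.6 to 38.4 CPM in the control libraries, 5.21 to 6.80 with shRNF185.1 and 5.19 to 6.72 with shRNF185.3, with a log2 fold change of -2.63 for each hairpin. The labelled cell type was checked against listed markers. The keratins Krt8 and Krt18 and the prostate transcription factor gene Hoxb13 were expressed, while the luminal gene Pbsn and the basal keratin gene Krt5 stayed at or under 3 counts in every library. Of 10 macrophage and leukocyte markers, 6 (Ptprc, Adgre1, Itgam, Tyrobp and Cd3e among them) were at or under 3 counts in every library, and Cd14 and Cd68 passed the filter. In bulk RNA, a change in the number of cells that express a gene and a change in RNA per cell cannot be told apart.

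Per kilobase of coding transcript, the 10 genes covered a wide range in the control cells. The length was that of the merged exons of all coding transcripts of a gene, 1575 bases for Cxcl5 and 7160 for Cxcl12. Which transcripts the cells used was not examined, and a gene used mainly as a shorter transcript would rank higher. The highest control level was that of Cxcl5, at 369 ± 70.7 CPM per kb, followed by Ccl2 at 332 ± 36.6, and their libraries overlapped. Cxcl1 (232 ± 29.1 CPM per kb), Cxcl12 (165 ± 22.2) and Ccl7 (158 ± 21.2) came next, each overlapping its neighbour in that order, and all 6 Ccl2 libraries lay above those of Cxcl1. Cx3cl1 at 36.3 ± 5.54 CPM per kb did not overlap with Ccl7 above it or Cxcl16 (13.99 ± 3.27) below it. Ccl5 (9.43 ± 2.40 CPM per kb), Cxcl10 (5.21 ± 1.87) and Ccl20 (2.01 ± 0.642) were lowest, with neighbours overlapping. Without correction for length, Cxcl12 contributed most CPM, from 39.9% to 51.3% of the sum over the 10 genes in the control libraries. That sum ran from 2247 to 2759 CPM in control, 3134 to 3640 with shRNF185.1 and 3336 to 4198 with shRNF185.3, so that neither hairpin group overlapped with control.

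Ccl5, Ccl7, Cxcl5, Cxcl10 and Cxcl12 rose with both hairpins. With shRNF185.1, 5 of the 10 genes were called higher and 0 lower by edgeR's quasi-likelihood test at an adjusted p under 0.05, where 28.9% of all genes tested were called, 14.6% higher and 14.3% lower. With shRNF185.3, the same 5 were called higher and Cxcl16 lower, where 27.3% of all genes were called, 14.2% higher and 13.1% lower. The median log2 fold change of the 10 genes was 0.30 and 0.29, beside -0.02 over all genes tested with either hairpin. The hairpins share the control libraries. Between the hairpins, Cx3cl1 and Cxcl12 were higher and Cxcl16 lower with shRNF185.3, 3 of 10 genes, where 14.7% of all genes were called, 7.72% higher and 6.94% lower. Ccl2, Ccl20 and Cxcl1 were called in none of the 3 comparisons.

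**Figure D1:**
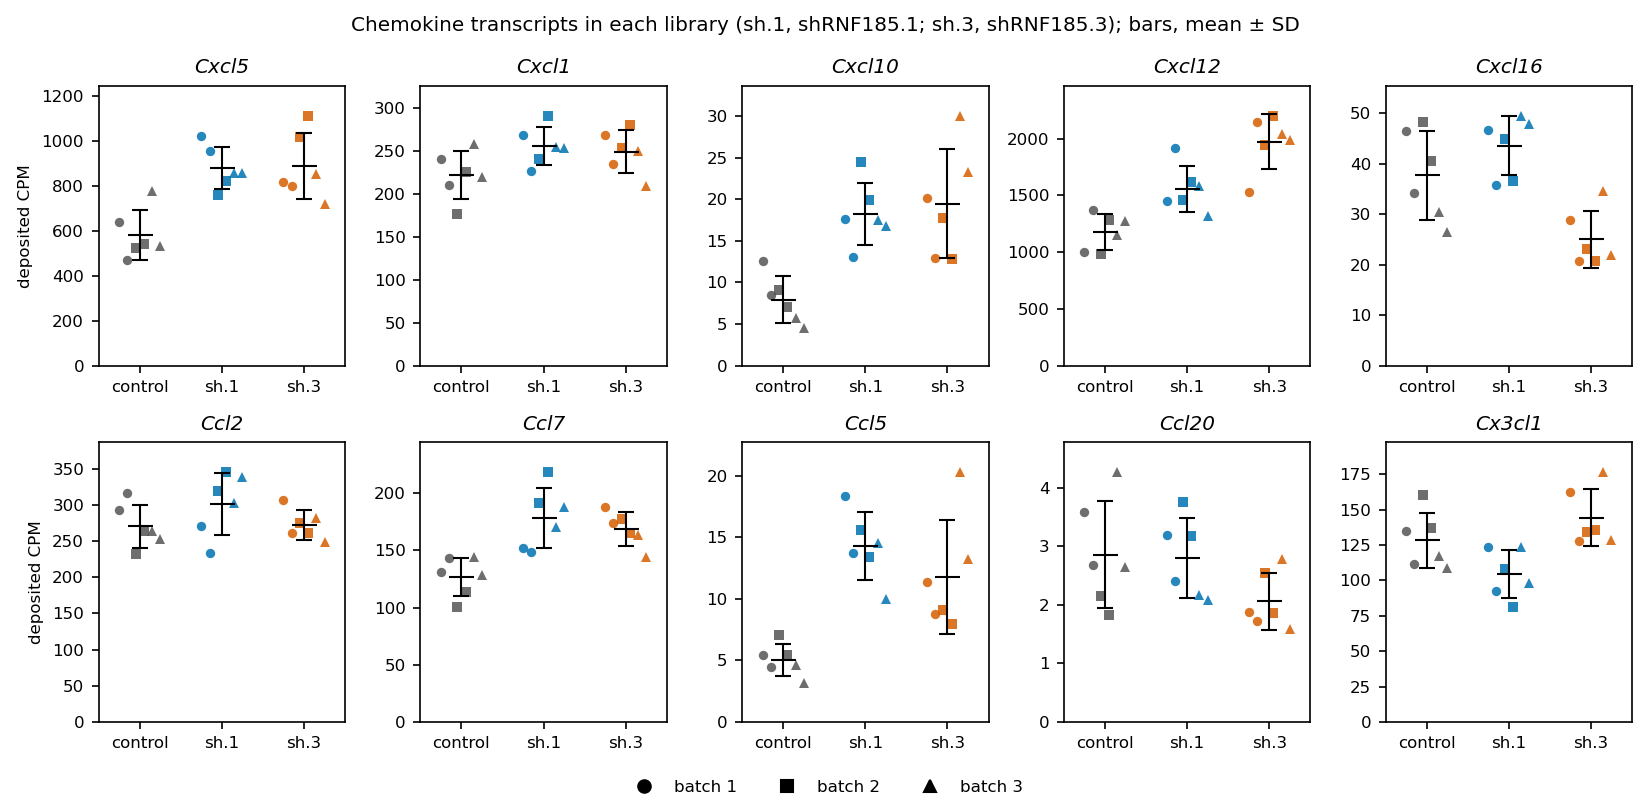
Level of each chemokine gene in each library. The vertical axes give deposited CPM from 0 and the horizontal axes the 3 groups (sh.1, shRNF185.1 and sh.3, shRNF185.3). Points are libraries, shaped by batch, and bars are mean ± SD over 6 libraries. The Ccl5 and Cxcl10 libraries of both hairpins lie above every control library, and the Cxcl16 libraries of shRNF185.3 lie below every library of shRNF185.1.

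Among the neutrophil-attracting genes, Cxcl5 rose and Cxcl1 was not called. Cxcl5 was at 470, 538 and 779 CPM in the lowest, median and highest control library, at 759, 859 and 1023 in the shRNF185.1 libraries, and at 720, 836 and 1111 in those of shRNF185.3. In each hairpin group 5 of 6 libraries lay above every control library, and the overlap came from 1 control library at 779 CPM. With shRNF185.1 Cxcl5 rose by 0.60 ± 0.12 on the log2 scale (SE, adjusted p = 0.000917), and with shRNF185.3 by 0.61 ± 0.12 (adjusted p = 0.000786). Without batch 2 the second value was 0.40 (adjusted p = 0.0356). Between the hairpins the difference was 0.01, with a 95% interval from -0.23 to 0.26. It was -0.28, 0.43 and -0.13 within batches 1, 2 and 3, so the fitted value averages opposite directions. Of the 75-base windows of Cxcl5 transcripts, 0.571% were shared with other genes, and of the other 9 chemokine genes none were.

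Cxcl1, which lies 129616 bases from Cxcl5 on chromosome 5, averaged 222 ± 27.7 CPM in control, 256 ± 22.1 with shRNF185.1 and 249 ± 25.1 with shRNF185.3. The groups overlapped, with 2 libraries of each hairpin above all controls. Its log2 fold changes were 0.21 (95% interval 0.03 to 0.38, adjusted p = 0.0768) and 0.17 (-0.01 to 0.35, adjusted p = 0.144). The upper bounds of both intervals lie below the fitted changes of Cxcl5, which carry errors of their own. The difference between the 2 genes was not tested.

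Cxcl10 rose more than 2-fold with both hairpins from a low level. Its libraries were at 4.55, 7.77 and 12.6 CPM (lowest, median and highest) in control, 13.0, 17.6 and 24.4 in the shRNF185.1 libraries, and 12.8, 18.9 and 30.0 in those of shRNF185.3. Neither hairpin group overlapped with control. The rise on the log2 scale was 1.20 ± 0.24 for shRNF185.1 (SE, adjusted p = 0.000734), a fold of 2.3, and 1.301 ± 0.24 for shRNF185.3 (adjusted p = 0.000391), a fold of 2.46. Within batches the difference from control varied. For shRNF185.1 it was 0.55, 1.45 and 1.73 in batches 1, 2 and 3. For shRNF185.3 it was 0.64, 0.91 and 2.35, and the groups did not overlap in any batch. Without batch 3 the shRNF185.3 value was 0.78 (adjusted p = 0.0284). Between the hairpins Cxcl10 differed by 0.10 (95% interval -0.38 to 0.57), and by 0.09, -0.54 and 0.63 within batches 1, 2 and 3. The gene overlaps Art3 on the opposite strand over 133 exonic bases, and Art3 had 0 to 4 counts per library.

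Ccl5 had the largest log2 fold change of the 10 genes with shRNF185.1. It was at 3.20, 4.998 and 7.02 CPM in control, 9.98, 14.1 and 18.3 in the shRNF185.1 libraries, and 7.96, 10.2 and 20.3 in those of shRNF185.3. No hairpin library reached down to the control range. The log2 fold change was 1.51 ± 0.22 (SE, adjusted p = 3.99e-05), a fold of 2.85, and 1.23 ± 0.22 (SE, adjusted p = 0.000333), a fold of 2.35. Batch by batch, the rise was 1.68, 1.21 and 1.63 for shRNF185.1. For shRNF185.3 it was 1.01, 0.46 and 2.08, and without batch 3 the fitted value was 0.74 (adjusted p = 0.00564). Between the hairpins the fitted difference was -0.28 (95% interval -0.72 to 0.16, adjusted p = 0.476). Within batches 1 and 2 shRNF185.3 was lower by 0.67 and 0.76, and within batch 3 higher by 0.45, and without batch 3 the difference was called (-0.72, adjusted p = 0.00730).

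Across the 18 libraries, the profile of Ccl5 and that of Cxcl10 ran close to each other. Likeness was measured as the root mean square difference of log2 CPM, each gene centred on its mean, among 11695 genes with a mean count of at least 50. Cxcl10 was at 0.32 from Ccl5, the 7th nearest of all genes to it, and Ccl5 was the 2nd nearest to Cxcl10. Nearest to Ccl5 was Ifih1, a cytosolic sensor of double-stranded RNA, at 0.27, and next to it Onecut2, a transcription factor, also at 0.27. Nearest to Cxcl10 was Rnf213 at 0.28. The median gene was at 0.77 from Ccl5 and 0.75 from Cxcl10. These points share libraries and depth, and the measure is a description.

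Ccl7 rose by a smaller amount, and its neighbour Ccl2 was not called. The 2 genes lie 8258 bases apart on chromosome 11. Ccl7 was at 101, 130 and 144 CPM in control, 149, 179 and 218 in the shRNF185.1 libraries, and 144, 170 and 188 in those of shRNF185.3. All 12 hairpin libraries were above all controls, the lowest of shRNF185.3 (143.94 CPM) only just above the highest control (143.87). The log2 fold change was 0.49 ± 0.10 (SE, adjusted p = 0.000947) and 0.42 ± 0.10 (SE, adjusted p = 0.00382). Without batch 2 the shRNF185.1 value was 0.27 (adjusted p = 0.0310). Ccl2 averaged 270.3 ± 29.7 CPM in control, 302 ± 42.97 with shRNF185.1 and 272 ± 20.7 with shRNF185.3. Its log2 fold changes were 0.16 (95% interval -0.03 to 0.34, adjusted p = 0.204) and 0.01 (-0.17 to 0.20, adjusted p = 0.923). With shRNF185.1, Ccl2 was lower than control in batch 1 by 0.27 and higher in batches 2 and 3 by 0.42 and 0.31, and without batch 1 it was called higher (0.36, adjusted p = 0.00341).

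Ccl20 was the lowest of the 10 genes per kilobase in control and was not called. It averaged 2.86 ± 0.912 CPM in control, 2.80 ± 0.678 with shRNF185.1 and 2.06 ± 0.487 with shRNF185.3. Its log2 fold changes were -0.02 (95% interval -0.46 to 0.41, adjusted p = 0.943) and -0.47 (-0.91 to -0.02, adjusted p = 0.111). Without batch 2 the shRNF185.3 value was called lower (-0.73, adjusted p = 0.0267).

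Cxcl12 rose with both hairpins and was higher with shRNF185.3 than with shRNF185.1. It was at 988, 1212 and 1372 CPM in control, 1321, 1520.3 and 1917 in the shRNF185.1 libraries, and 1529.7, 2014 and 2201 in those of shRNF185.3. All shRNF185.3 libraries and 5 of 6 shRNF185.1 libraries lay above all controls. The log2 rise was 0.40 ± 0.10 for shRNF185.1 (SE, adjusted p = 0.00556) and 0.75 ± 0.10 for shRNF185.3 (adjusted p = 2.23e-05). The difference between the hairpins was 0.35 ± 0.10 (SE, adjusted p = 0.0269). It was 0.12, 0.43 and 0.48 within batches 1, 2 and 3. The call between the hairpins ended without batch 2 (adjusted p = 0.200), without batch 3 (0.238) and with nearly unfiltered genes (0.0596).

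Nearest to Cxcl12 across the libraries were Sparc, which encodes a collagen-binding matrix protein, at 0.13, and Arsj at 0.15. Cxcl12 is strongly expressed by fibroblasts, so fibroblast markers are given beside it. Of 7 markers, 4 passed the filter: 2 were higher and 1 lower with shRNF185.1, 3 higher with shRNF185.3, and 4 higher in shRNF185.3 against shRNF185.1, beside 14.6%, 14.2% and 7.72% of all genes called higher. The collagen gene Col1a1 rose by 1.29 and 2.19 (log2), and Thy1 and Fap were at or under 3 counts in every library. The summed level of the 7 markers was 305 to 392 CPM in control, 417 to 616 with shRNF185.1 and 583 to 910 with shRNF185.3. Of 8 epithelial markers 6 were tested, and 4 were lower with each hairpin, where 14.3% and 13.1% of all genes were. The summed level of the 8 was 1696 to 2519 CPM in control, 1013 to 1810 with shRNF185.1 and 1166 to 1379 with shRNF185.3. The part of these markers in the Cxcl12 result was not tested.

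**Figure D2:**
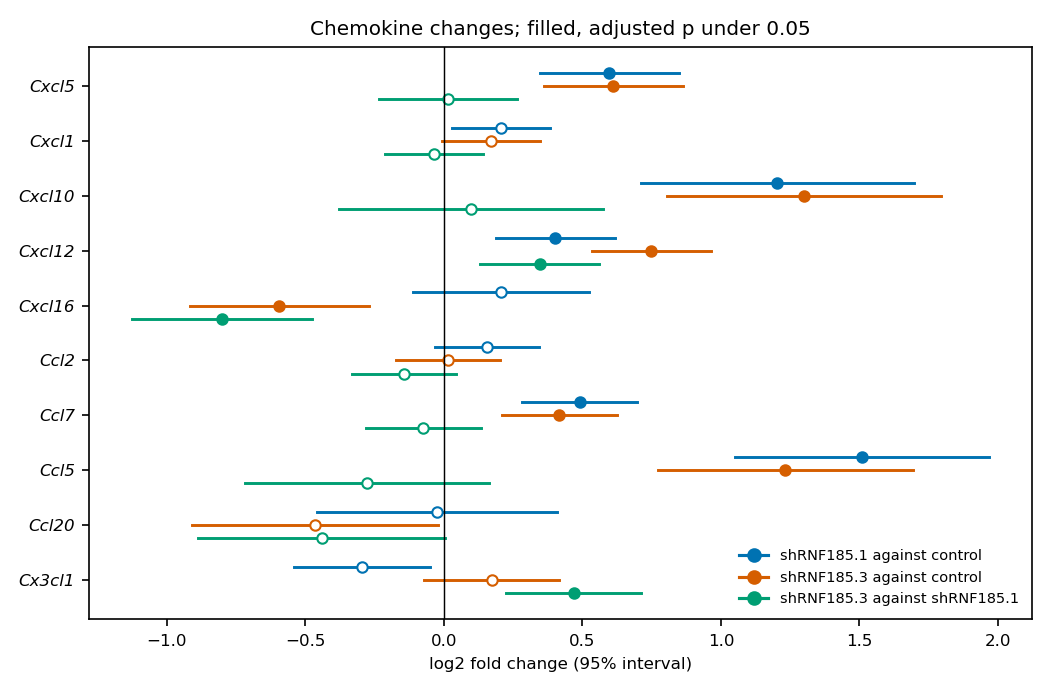
Log2 fold change of each chemokine gene in the 3 comparisons. The horizontal axis gives the log2 fold change and its 95% interval from edgeR, and the vertical axis the gene. Filled points have an adjusted p under 0.05. Cxcl16 lies at 0.21 with shRNF185.1 and at -0.59 with shRNF185.3, and Cxcl12 at 0.40 and 0.75.

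The genes of the membrane-anchored chemokines, Cxcl16 and Cx3cl1, differed between the hairpins. Cxcl16 was at 26.4, 37.4 and 48.3 CPM in control, 35.8, 45.8 and 49.5 in the shRNF185.1 libraries, and 20.7, 22.5 and 34.6 in those of shRNF185.3. All shRNF185.3 libraries lay below all shRNF185.1 libraries, and 4 of 6 lay below all controls. The log2 difference between the hairpins was -0.80 ± 0.15 (SE, adjusted p = 0.00140), and it was -0.74, -0.89 and -0.81 within batches 1, 2 and 3. Against control, Cxcl16 was at 0.21 with shRNF185.1 (95% interval -0.11 to 0.53, adjusted p = 0.333) and fell by 0.59 ± 0.15 with shRNF185.3 (SE, adjusted p = 0.00739). The fall was 0.70 and 1.01 within batches 1 and 2 and 0.04 within batch 3, where the groups overlapped. The call against control ended without batch 1 (-0.54, adjusted p = 0.0922) and without batch 2 (-0.38, adjusted p = 0.150).

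Cxcl16 overlaps Zmynd15 on the opposite strand over 552 bases, 18.3% of its exonic length. Zmynd15 was also the gene nearest to Cxcl16 in profile, at 0.12, followed by Ezr at 0.19. Zmynd15 was at 4.63 ± 1.22 CPM in control, 5.50 ± 1.08 with shRNF185.1 and 3.14 ± 0.912 with shRNF185.3, and its log2 difference between the hairpins was -0.81 (adjusted p = 0.00810), a call that ended without batch 1 and without batch 2. The libraries were made with a kit that keeps strand, but the sources used here do not say whether counting used it, so reads of the 2 genes may be mixed.

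Cx3cl1 was at 108, 126 and 160.1 CPM in control, 81.3, 103 and 124 in the shRNF185.1 libraries, and 128, 135 and 176 in those of shRNF185.3. Every shRNF185.3 library lay above every shRNF185.1 library, and the control libraries overlapped with both. The difference between the hairpins was 0.47 ± 0.12 (SE, adjusted p = 0.00974), and 0.43, 0.53 and 0.46 within batches 1, 2 and 3. That call ended without batch 1 (adjusted p = 0.0856). Against control the log2 fold changes were -0.29 (95% interval -0.54 to -0.05, adjusted p = 0.0658) and 0.17 (-0.07 to 0.42, adjusted p = 0.291). With shRNF185.1 the gene was called lower by DESeq2 (adjusted p = 0.0496), without batch 3 (0.0413) and without control replicate 6 (0.0439). Its size there was -0.19, -0.67 and -0.04 within batches 1, 2 and 3, and without batch 2 the fitted value was -0.11 (adjusted p = 0.538).

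Fewer genes had groups that did not overlap at all. With shRNF185.1 3 genes (Ccl5, Ccl7 and Cxcl10) had all libraries above control, and 0 had all below. Of all genes tested, 12.8% were separated, 7.02% upward and 5.77% downward. With shRNF185.3 4 genes (these and Cxcl12) were separated upward and 0 downward, beside 13.3% of all genes, 7.6% upward and 5.7% downward. Between the hairpins 1 gene (Cx3cl1) was separated upward and 1 (Cxcl16) downward, beside 8.25% of all genes, 4.45% upward and 3.79% downward.

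**Figure D3:**
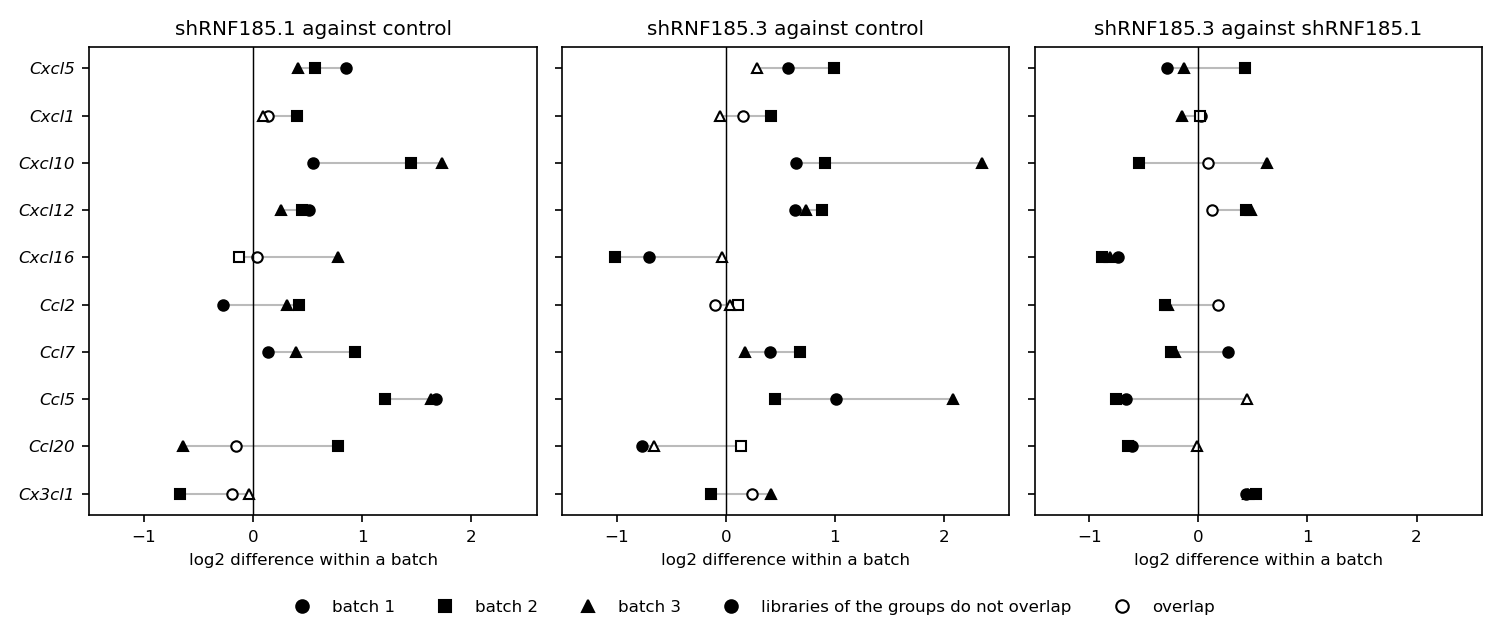
Difference in mean log2 CPM within each batch for the 3 comparisons. The horizontal axes give the log2 difference, rows are genes and shapes are batches. Filled points mark batches in which the 2 libraries of a group lie beyond both of the other. The 5 genes that rose are to the right of 0 in every batch with each hairpin.

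Within a group and batch, the library with the even number was often lower than that with the odd number. Ccl5, Ccl20, Cxcl10 and Cxcl16 were lower in the even-numbered library in 9 of 9 pairs, by 0.39, 0.38, 0.40 and 0.32 on the log2 scale on average, where 5.47% of all genes tested were lower and 4.88% higher in 9 of 9. Cx3cl1 was lower in 8 of 9, and Cxcl12 higher in 7 of 9 with a mean difference of 0.21. The labels do not say what odd and even numbers stand for. Each group holds 3 of either kind, and the part of this difference in the results was not tested.

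**Figure D4:**
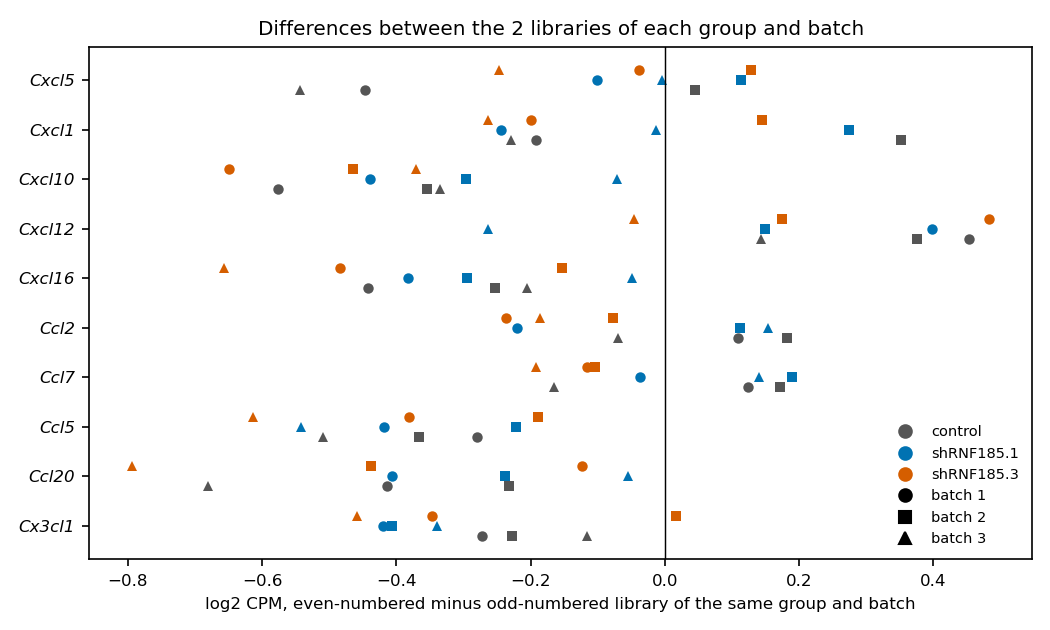
Difference in log2 CPM between the even-numbered and the odd-numbered library of the same group and batch, for each gene. The horizontal axis gives the difference, colors are groups and shapes are batches. All 9 points of Ccl5, Ccl20, Cxcl10 and Cxcl16 lie to the left of 0.

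The other chemokine ligands were mostly below the filter, and 11 of 28 were tested. The shRNF185.1 libraries had 3 of them called higher and 2 lower, the shRNF185.3 libraries 6 higher and 0 lower, which is 45.5% and 54.5% of those tested beside 28.9% and 27.3% of all genes. Their median was 0.27 with each hairpin, beside -0.02 over all genes. These shares and medians include Cxcl9 and Cxcl11, whose place among the genes tested rests mostly on hairpin libraries, so they depend in part on the filter. Cxcl9, a Cxcr3 ligand like Cxcl10, was at 0.516 ± 0.191 CPM in control. It rose by 1.68 and 1.77 on the log2 scale (edgeR adjusted p = 3.06e-05 and 1.68e-05). Cxcl9 had 8 to 25 counts per library in control, 33 to 57 with shRNF185.1 and 33 to 63 with shRNF185.3. It passed the filter mostly through the hairpin libraries, where it is high, so its p-values give no separate support. Cxcl11, the remaining Cxcr3 ligand, was at 0 to 22 counts per library, and its shRNF185.3 value of 2.06 (adjusted p = 0.0491) lost the call in 8 of 15 alternatives. Cxcl11 passed the filter mostly through the shRNF185.3 libraries, the group in which it was called higher. Ppbp, a Cxcr2 ligand beside Cxcl5 on chromosome 5, rose by 1.10 and 1.43, and Cxcl3, another Cxcr2 ligand, by 0.44 and 0.86, the first a call that ended without batch 2. Cxcl2 was called with neither hairpin (0.27 and -0.10). In the cluster around Ccl2 and Ccl7, the eosinophil attractant gene Ccl11 fell by 1.87 with shRNF185.1, from 0.882 ± 0.417 to 0.239 ± 0.113 CPM, a call that ended without batch 1. Ccl8 rose by 0.95 with shRNF185.3, a call that ended without either batch 2 or batch 3 and when libraries were summed. Ccl25 was lower by 0.22 with shRNF185.1 and higher by 0.24 with shRNF185.3, and these calls ended in 6 and 4 of the 15 alternatives. Ccl25 overlaps Elavl1 and Cxcl11 overlaps Gm2673 on the opposite strand, with the same limit on strand as for Cxcl16.

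Most receptor genes for these ligands were below the filter. Of 23 receptor genes 2 passed the filter, Ackr3 and Ccr7, and neither was called in any comparison. Ackr3, which binds and removes Cxcl12, was at 74.98 ± 11.9 CPM in control, 81.6 ± 11.8 with shRNF185.1 and 79.2 ± 9.67 with shRNF185.3. Cxcr4, the signalling receptor of Cxcl12, had 0 counts in all 18 libraries, where 3 counts correspond to 0.0692 to 0.136 CPM. Cxcr3 had at most 1 count in any library and Ccr2 at most 1.

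Proteases that cleave or shed chemokines were described by 7 genes, of which 6 were tested. With shRNF185.1 3 rose and 0 fell, and with shRNF185.3 2 rose and 1 fell, that is 3 of 6 with each hairpin, beside 28.9% and 27.3% over all genes. Adam10 and Adam17 encode the main sheddases of Cx3cl1 and Cxcl16. Adam17 was higher with shRNF185.1 (0.16, adjusted p = 0.00664), a call that ended without batch 1 and without batch 2, and was not called with shRNF185.3 (-0.04), while Adam10 was called with neither (0.14 and 0.07). Mmp9, a gelatinase gene, rose by 1.32 with shRNF185.3 (adjusted p = 1.60e-06) and was at -0.19 with shRNF185.1. Mmp2 rose by 0.70 with shRNF185.1, a call that ended without batch 1. Mmp3 fell by 0.92 with shRNF185.3, a call that ended without either batch 1 or batch 2 and when libraries were summed.

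The genes of NF-kB factors and their regulators moved in both directions. Of 18 tested, shRNF185.1 had 4 called higher and 5 lower, and shRNF185.3 had 3 higher and 5 lower, at medians of 0.03 and -0.07. These are 9 and 8 of 18 genes, where all genes gave 28.9% and 27.3%. Birc3, an inhibitor of apoptosis gene, rose by 0.91 and 0.43, and the call with shRNF185.3 ended without batch 1 and without batch 3. Ikbkg, which encodes the regulatory subunit of the IκB kinase, rose by 0.47 and 0.28, and the call with shRNF185.3 ended without batch 1. The feedback inhibitor gene Tnfaip3 fell by 0.48 and 0.58, and Traf1, a signalling adaptor gene, by 1.35 and 0.76.

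Interferon signalling was described by 12 genes, of which 11 were tested. With shRNF185.1 6 of them rose and 0 fell, beside 14.6% higher and 14.3% lower among all genes. With shRNF185.3 4 rose and 1 fell, beside 14.2% and 13.1%, and the medians were 0.30 and 0.51. Irf5, a transcription factor gene, rose by 1.59 and 1.45. Irf7 rose by 1.74 with shRNF185.1, a call that ended without batch 1 and with summed libraries (2.89 without batch 2 and 1.15 without batch 3), and was at 1.23 with shRNF185.3 (adjusted p = 0.0523). Irf3 fell by 0.21 with shRNF185.3, a call that ended without batch 1 and without batch 2. These genes were given beside Cxcl10, and their part in its result was not tested.

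Other inflammatory cytokine genes divided between directions. Of 11 genes 9 were tested, and 3 rose and 3 fell with shRNF185.1, while 2 rose and 4 fell with shRNF185.3. With either hairpin 66.7% of those tested were called, where 28.9% and 27.3% of all genes were. Il18, which encodes a cytokine of the interleukin-1 family, had the largest log2 fold change of the list with shRNF185.3, from a very low level: it was at 0 to 5 counts per library in control, 2 to 5 with shRNF185.1 and 12 to 21 with shRNF185.3. It rose by 2.79 ± 0.37 with shRNF185.3 (SE, edgeR adjusted p = 1.46e-05), or by 0.52 with 1 added to CPM before the logarithm, and was not called with shRNF185.1 (0.75, adjusted p = 0.239). Il18 passed the filter on low counts only through the shRNF185.3 libraries, where it is high, so its p-value there gives no separate support. Il1a rose by 1.45 and 1.35, while the colony-stimulating factor genes Csf2 (-1.29 and -1.49) and Csf3 (-1.06 and -1.302) fell. The Csf2 call with shRNF185.3 and the Csf3 call with shRNF185.1 ended without batch 1. Of 7 genes of cytokine mRNA decay, 2 rose and 2 fell with shRNF185.1, while 1 rose and 1 fell with shRNF185.3. The second share called, 28.6%, is close to the 27.3% of all genes, and the first is 57.1% beside 28.9%. Zfp36l1 and Zfp36l2 encode related proteins that bind AU-rich elements, and they moved in opposite directions with both hairpins: Zfp36l1 rose by 0.54 and 0.65, and Zfp36l2 fell by 0.32 and 0.33.

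**Figure D5:**
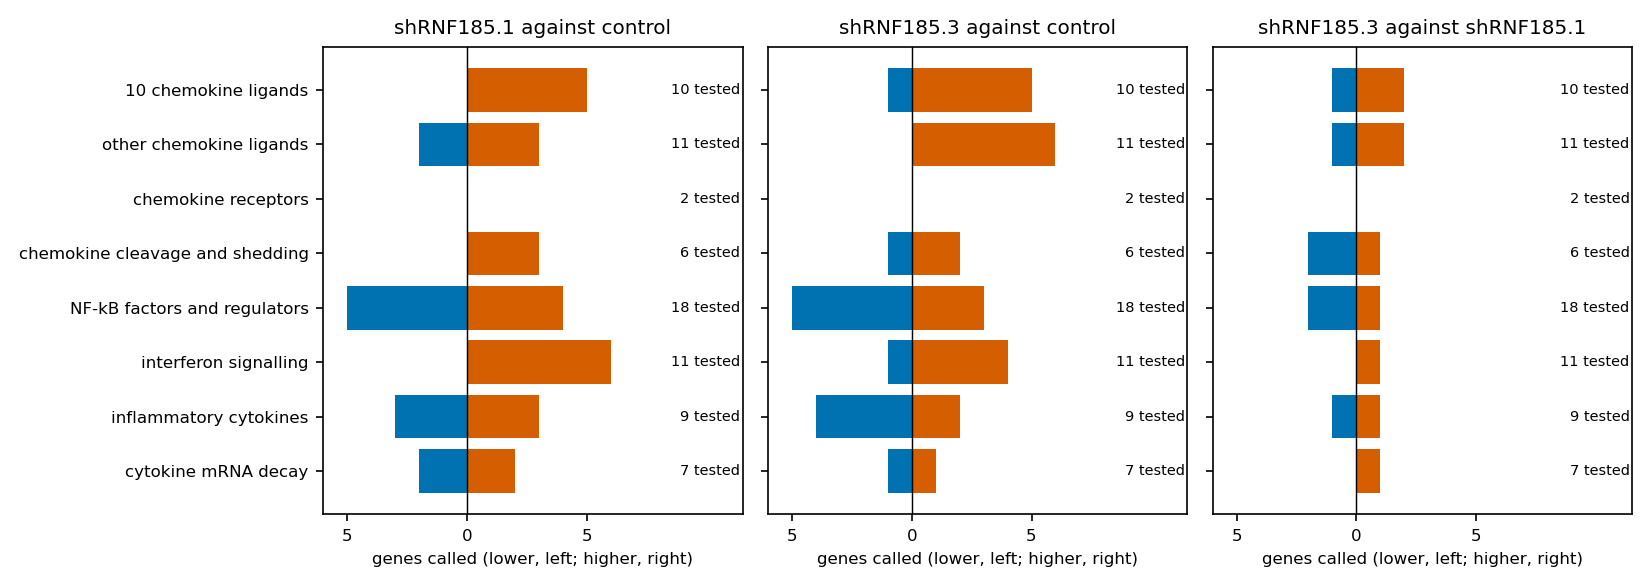
Number of genes called higher (right of 0) and lower (left of 0) at an adjusted p under 0.05 in each gene list, for the 3 comparisons. The number tested stands at the right of each row. The 10 chemokine ligands had 5 higher with each hairpin and 0 or 1 lower.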

How the data were processed

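Polyadenylated RNA of 18 MPC3 libraries was sequenced from directional libraries with single-end reads of 75 bases, per the labels' protocols. The submitters' processing notes name cutadapt 2.3, STAR 2.7.0d, RSEM 1.3.1 and the build mm10, with no role stated. The authors deposited expected counts per gene, adjusted for batch by ComBat-Seq per the labels, and 0.466% of these values were not whole. The authors also deposited CPM, a signal scaled by library, with sums that differ between libraries. Whether the adjustment was told the groups is not given in the sources used here. It can narrow the spread between batches.

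Counts were rounded and fitted in R 4.3.3 with edgeR 4.0.16 (filterByExpr with a minimum count of 10, TMM scaling, a mean per group over all 18 libraries, quasi-likelihood F test, Benjamini-Hochberg adjustment over 14309 genes). The planned test assumed whole counts and was kept. Standard errors came from the fold change and F, and intervals of 95% from the t distribution. Log2 CPM for profiles, within-batch differences and even against odd libraries came from edgeR after TMM scaling, with a prior count of 2. The test was checked on simulated data. There were 15 alternatives for each of 3 comparisons, with DESeq2 1.42.0 and limma 3.58.1 among them. Symbols matched 99.1% of identifiers. Some genes of the lists are not reported here by name. Gene positions were taken from GENCODE M21 (GRCm38). Chi-square per gene between libraries of a group was 7.64 to 84.4 over 45 pairs, so none looked like a duplicate.

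The members, gene lists and marker lists were chosen with earlier results of these data known. All 10 members, Rnf185, other ligands and receptors could be named, and of each other list the 2 highest and 2 lowest genes called in a comparison, genes whose role is given beside a member, and for each member the 2 genes nearest in profile. Reads carry no molecular identifiers, so limits from counts cover counting error only.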

Additional observations from a re-analysis of the deposited data

Results flagged for a closer look

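The tested chemokine ligands were among the genes examined for single libraries far from the rest. Of 72 groups of 6 libraries examined, 4 held such a library, beside 3.6 that chance gives at 1 in 20. They were Cxcl12 in shRNF185.3 replicate 1, at 10.59 log2 CPM with the next library at 10.93, Cxcl3 in shRNF185.1 replicate 2, at 3.42 with the next at 3.58, Ccl11 in shRNF185.3 replicate 3, at -3.19 with the next at -0.999, and Cxcl11 in shRNF185.3 replicate 2, at -3.23 with the next at -1.13. Ccl11 had 1 to 29 counts per shRNF185.3 library and Cxcl11 1 to 22.

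The hairpins differed by edgeR's test in 6 chemokine ligand genes, 3 of the 10 genes and 3 of the 11 other ligands tested. Of all genes tested, 14.7% were called in this comparison, 7.72% higher and 6.94% lower. On the log2 scale, shRNF185.3 was higher than shRNF185.1 by 0.47 for Cx3cl1, 0.35 for Cxcl12, 0.46 for Ccl25 and 0.42 for Cxcl3, and the difference was -0.80 for Cxcl16 and -0.37 for Cxcl2. The Cxcl2 call ended in 5 of 15 alternatives: without batch 1, batch 2 or batch 3 (adjusted p = 0.262, 0.0826 and 0.0571), with batch as a covariate (0.0506) and with nearly unfiltered genes (0.0501). The Cxcl3 call ended without batch 1 (0.0587) and without batch 2 (0.121), that of Cx3cl1 without batch 1, and that of Cxcl12 without batch 2, without batch 3 and with nearly unfiltered genes.

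In 3 cases the libraries of a hairpin lay wholly above control in one batch and wholly below it in another, and this difference between batches was not tested. With 2 libraries per group and batch, groups can separate by chance ordering. The share of all genes with such a pattern was not computed, so the cases are a description. Ccl2 with shRNF185.1 was at -0.27 in batch 1, 0.42 in batch 2 and 0.31 in batch 3. Ccl20 with shRNF185.1 was at 0.78 in batch 2 and -0.64 in batch 3. Cx3cl1 with shRNF185.3 was at -0.13 in batch 2 and 0.42 in batch 3. Between the hairpins, Ccl7, Cxcl5 and Cxcl10 also separated in opposite directions in different batches. Ccl7 was at 0.27, -0.25 and -0.22 in batches 1, 2 and 3, Cxcl5 at -0.28, 0.43 and -0.13, and Cxcl10 at -0.54 and 0.63 in batches 2 and 3.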

How the results depend on the processing

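Of 450 values of the 10 chemokine genes under 15 alternatives and 3 comparisons, 425 kept their direction and side of the threshold, 10 changed sign, 9 gained a call and 6 lost it. Ccl5, Ccl7, Cxcl5, Cxcl10 and Cxcl12 were called higher with both hairpins in every alternative run. The number of genes called, 4141, 3906 and 2098, fell without batch 1 to 2207, 2120 and 753, without batch 3 to 2501 for shRNF185.3 against control, and without batch 2 to 1208 between the hairpins. Without batch 2 the count for shRNF185.1 against control was higher, at 5119. Signs changed only in values that were not called: Ccl20 with shRNF185.1 (0.020 by limma-voom, 0.049 without batch 1, 0.29 without batch 3), Cxcl16 with shRNF185.1 (-0.049 without batch 3), Ccl2 with shRNF185.3 (-0.036 without batch 2, -0.0048 without control replicate 6), and between the hairpins Ccl7 (0.020 without batch 2), Cxcl1 (0.016 without batch 3), Cxcl5 (-0.21 without batch 2) and Cxcl10 (-0.24 without batch 3). Ccl2 between the hairpins was called without batch 1 (adjusted p = 0.0255). Adding 1 to CPM before the logarithm shrank changes of genes near or below 1 CPM, as it must (Cxcl9 to 0.81 and 0.86, Ppbp to 0.63 and 0.86, Ccl11 to -0.58). For the other changes the cause was not tested.

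The same replicate numbers occur in each group. Deviations of same-numbered libraries correlated at -0.0144 on average over 18 pairs, 4 of them over 0.1. Those of the other number of the same batch averaged -0.434 over 18 pairs, and those of other batches 0.111 over 72. With 2 of 18 libraries correlating best with their own number, the numbers were not taken as pairs in the main fit. The values cannot decide whether numbers pair libraries, because same-batch libraries also differ by odd and even number. With the replicate block 3811, 3578 and 1976 genes and 7, 6 and 3 chemokine genes were called. With shRNF185.1 the block added Cx3cl1 (-0.30, adjusted p = 0.0304) and Cxcl1 (0.21, adjusted p = 0.0394).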
